A study of Mus musculus with 37 samples.

Results

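The genes that write, copy, remove or protect DNA methylation were followed through early tail formation in mouse embryos. The set of 10 genes, of 35542 in the count table, was Dnmt1, Uhrf1, Dnmt3a, Dnmt3b, Dnmt3l, Tet1, Tet2, Tet3, Zfp57 and Trim28. They were taken by symbol, by a rule that uses no measured value, although the set was chosen with earlier results of these data known. Each was found as 1 row, at the same position as in the GENCODE M21 annotation of GRCm38.

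RNA-seq was performed on tailbud tissue from 37 embryos at embryonic day 8 to 8.5, with 6 to 11 somites, the paired mesodermal blocks whose number serves as a measure of developmental age. All embryos were F1 hybrids of C57BL/6 mothers and Castaneus (Cast) Smchd1 +/+ fathers. The 21 Smchd1 wt embryos were Smchd1 fl/+ and came from Smchd1 fl/fl mothers without the Cre transgene. The 16 Smchd1 matΔ embryos were Smchd1 del/+ and came from Smchd1 del/fl MMTV-Cre T/+ mothers, so that SMCHD1, which binds chromatin and keeps certain genes silent, was missing from the oocyte.

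The MMTV promoter drove Cre in the mothers. A matΔ embryo thus lacked both the oocyte supply of SMCHD1 and a working maternal copy, with the paternal allele intact, and the 2 losses cannot be told apart here. Per stage there were 3 to 4 wt and 2 to 4 matΔ embryos, 13 of 21 wt and 11 of 16 matΔ embryos were female, and each embryo gave 1 library. Sex was not balanced over stages. All embryos at 6 somites were female, as were the matΔ embryos at 8 and 9 somites, where wt embryos included males. Single stages were compared without sex in the model, so sex and genotype are partly mixed at 8 and 9 somites. Tissue was cut a little below the last somite. Because whole tailbuds were sequenced, fewer cells of a type and less RNA per cell cannot be told apart for any gene described here.

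Methylation of cytosine at CpG sites is copied at each cell division. UHRF1 recognises newly replicated DNA, which is methylated on the old strand only, and recruits DNMT1, which methylates the new strand. DNMT3A and DNMT3B place methylation at new sites, and DNMT3L, which has no catalytic activity, assists them in germ cells and the early embryo. TET1, TET2 and TET3 oxidise the methyl group and so start its removal. ZFP57 is a zinc finger protein that binds a methylated motif at imprinted control regions and brings in TRIM28 (KAP1), the scaffold on which silencing complexes assemble, so that imprints persist while the rest of the early embryonic genome is reprogrammed. The somite trend and the genotype difference of these genes address whether this machinery changed as the tail formed and whether it differed without maternal SMCHD1.

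Libraries held 3061180 to 80579115 counts in wt and 916444 to 30156555 counts in matΔ embryos. Smchd1 itself was at 149 ± 22.2 CPM (counts scaled to a common library size after TMM normalisation; SD, n = 21) in wt and 89.0 ± 13.3 CPM (SD, n = 16) in matΔ embryos, and 16 of 16 matΔ embryos lay below the wt mean of their stage. Replicates 1 and 2 of the matΔ 6-somite group stood apart with 2.77% and 1.82% of counts from ribosomal RNA (rRNA) loci, against 0.176% to 1.28% elsewhere, and are called the rRNA-rich pair. The 2 shallowest libraries were matΔ 6 somites replicate 3 and wt 7 somites replicate 2. The tailbud markers T, Tbx6, Msgn1, Cdx2, Wnt3a, Fgf8, Hes7 and Nkx1-2 summed to 518 to 1303 CPM in wt and 822 to 1201 CPM in matΔ embryos, so the defining markers of the labelled tissue were present in each library. Markers of formed somites summed to at most 47.1 CPM, and Pax1, the sclerotome marker, had 0 counts in every library.

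Of the 10 genes, 3 had a somite trend past the test, Dnmt3b in both genotypes, Dnmt3a in wt and Zfp57 in matΔ embryos. Across all genes tested, 6.61% passed in wt and 2.95% in matΔ embryos. The start regions of these 3 genes are shown because of their trends. Each runs from 250 bases before to 50 bases after a RefSeq transcription start on GRCm38.p6, written 5′ to 3′ on the gene's strand with every CpG, the dinucleotide that these enzymes act on, in capitals. The Dnmt3b region is chr2:153649199-153649498, the Dnmt3a region chr12:3806910-3807209 and the Zfp57 region chr17:37000913-37001212, all on the plus strand.
Dnmt3b: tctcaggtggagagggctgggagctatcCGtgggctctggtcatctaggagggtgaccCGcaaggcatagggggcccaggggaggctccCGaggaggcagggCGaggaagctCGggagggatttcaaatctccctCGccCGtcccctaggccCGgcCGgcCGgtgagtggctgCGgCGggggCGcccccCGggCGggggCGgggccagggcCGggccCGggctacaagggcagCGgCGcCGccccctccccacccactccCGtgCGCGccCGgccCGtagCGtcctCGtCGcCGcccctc
Dnmt3a: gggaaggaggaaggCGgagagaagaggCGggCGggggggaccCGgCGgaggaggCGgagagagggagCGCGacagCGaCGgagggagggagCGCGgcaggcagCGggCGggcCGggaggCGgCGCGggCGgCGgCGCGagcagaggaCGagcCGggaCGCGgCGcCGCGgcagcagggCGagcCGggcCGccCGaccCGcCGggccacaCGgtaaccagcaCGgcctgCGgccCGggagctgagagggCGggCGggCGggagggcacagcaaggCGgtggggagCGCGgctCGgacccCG
Zfp57: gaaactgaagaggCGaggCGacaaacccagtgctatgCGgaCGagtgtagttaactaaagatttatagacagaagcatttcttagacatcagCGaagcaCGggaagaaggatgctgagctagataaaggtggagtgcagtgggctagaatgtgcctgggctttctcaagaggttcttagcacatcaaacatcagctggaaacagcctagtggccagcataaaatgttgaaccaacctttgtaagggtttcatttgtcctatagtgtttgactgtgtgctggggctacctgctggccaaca

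The Dnmt3b region held 30 CpGs and the Dnmt3a region 47, whereas that of Zfp57 held 6. Among 32851 such regions of the genome the median was 7, and 11.7%, 1.44% and 56.4% held at least as many as the Dnmt3b, Dnmt3a and Zfp57 regions respectively. All 10 genes had RefSeq entries, with 19 start sites in all. The densest was that of Tet2 (chr3:133544341-133544640, minus strand), with 57 CpGs, a number reached by 0.152% of regions, although Tet2 was among the lowest of the 10 genes in level. The 3 start sites of Dnmt3l held 3 to 6 CpGs. The hexamer TGCCGC, the motif ZFP57 binds when methylated, was searched on both strands and occurred at 4 of 19 start sites, of Dnmt3a (2 start sites), Tet3 and Trim28, against 11.6% of all regions. Its inner CG is among the capitals, and the Dnmt3a region shown holds it 2 times. Methylation of these regions was not measured in the libraries analysed here.

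Levels of different genes were compared as RPKM, that is CPM per kilobase of merged exons. Trim28 (chr7:12999114-13031035) was the highest at 220 ± 26.1 RPKM (SD, n = 21 wt embryos), above 98.9% of the 14732 genes compared. Uhrf1 followed at 93.2 ± 8.40 RPKM and Dnmt1 at 41.2 ± 5.09 RPKM. Dnmt3b, at 25.1 ± 4.42 RPKM, exceeded Dnmt3a, at 11.7 ± 1.38 RPKM. The copying enzymes and the scaffold were thus measured above the enzymes that act on new sites. Zfp57 reached 6.92 ± 0.851 RPKM, Tet3 5.16 ± 0.716 RPKM and Tet1 3.23 ± 0.606 RPKM. Tet2 was at 0.465 ± 0.1002 RPKM and Dnmt3l at 0.104 ± 0.184 RPKM, so 8 of 10 genes passed 1 RPKM.

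This order held within single wt embryos. From Trim28 down to Tet2, each gene was above the next in 21 of 21 wt embryos, and the mean log2 ratio of each pair exceeded its SD. The narrowest step was Zfp57 over Tet3, with a log2 ratio of 0.43 ± 0.29 (SD) in wt. In matΔ embryos the same step was 0.23 ± 0.33, with Zfp57 higher in 13 of 16 embryos, so those neighbours did not differ beyond their spread. Tet2 exceeded Dnmt3l in 20 of 21 wt and 13 of 16 matΔ embryos. The order was the same when the longest transcript replaced the merged exons, or total counts replaced TMM scaling.

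**Figure D1:**
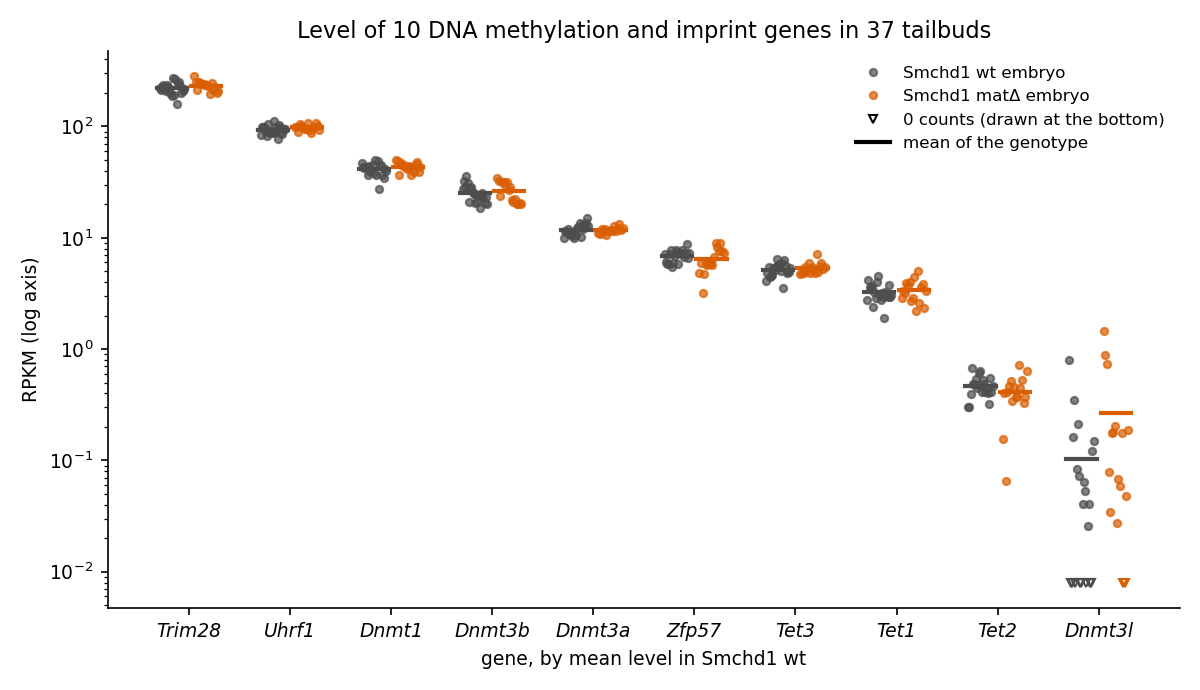
RPKM on a log axis for each of the 10 genes, ordered by the wt mean, with 1 point per embryo (grey wt, orange matΔ) and a bar at each genotype's mean. The wt means run from 220 RPKM for Trim28 to 0.104 RPKM for Dnmt3l, and the 10 libraries without a Dnmt3l count are drawn as triangles at the bottom.

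Maintenance of methylation rests on Dnmt1 (chr9:20907209-20959888, minus strand) and Uhrf1 (chr17:56303321-56323486). Dnmt1 ranged from 201 CPM over a median of 314 to 365 CPM in wt and from 270 over 322 to 370 CPM in matΔ embryos. Uhrf1 had the smallest spread of the 10 genes, with a coefficient of variation of 8.10% over all 37 embryos, and ranged from 331 over 389 to 481 CPM in wt and from 370 over 419 to 456 CPM in matΔ embryos. Neither showed a somite trend past the test. The slope of Uhrf1, as log2 change per somite, was -0.0017 ± 0.018 (SE) in wt and -0.0018 ± 0.016 in matΔ embryos. That of Dnmt1 was -0.031 ± 0.023 in wt and -0.021 ± 0.021 in matΔ embryos. The ratio of Dnmt1 to Uhrf1 RPKM was 0.442 ± 0.0405 (SD, n = 21) in wt and 0.445 ± 0.0370 (SD, n = 16) in matΔ embryos, so these partners stood in about the same proportion in both genotypes.

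Of the de novo enzymes, Dnmt3b (chr2:153649450-153687730) fell as somites were added. In wt embryos it stood at 139, 164, 145 and 183 CPM at 6 somites and at 106, 119 and 102 CPM at 11 somites. In matΔ embryos it stood at 176, 164, 122 and 160 CPM at 6 somites and at 105 and 102 CPM at 11 somites. At 6 somites each embryo was above each 11-somite embryo of either genotype. Ranges at 6 and 11 somites were apart for 3 of 9 members with a mean of at least 1 CPM in wt (Dnmt1, Dnmt3a and Dnmt3b) and for 3 of 9 in matΔ embryos (Dnmt3b, Zfp57 and Trim28), against 19.6% and 19.7% of such genes. From 6 to 7 to 10 to 11 somites the mean fell by 24.1% in wt embryos (n = 8 and 7). In matΔ embryos (n = 7 and 5) it fell by 33.1%.

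The slope of Dnmt3b was -0.10 ± 0.021 log2 units per somite (SE) in wt embryos (edgeR, adjusted p = 0.00401) and -0.15 ± 0.021 in matΔ embryos (edgeR, adjusted p = 0.00045). These fits share no embryo. Across all genes tested, 6.61% passed in wt and 2.95% in matΔ embryos in either direction, against 2 of the 9 members tested in wt (Dnmt3b and Dnmt3a) and 2 of the 10 tested in matΔ embryos (Dnmt3b and Zfp57). The difference between the Dnmt3b slopes was -0.043 ± 0.030 and did not pass (edgeR, adjusted p = 0.9998, unadjusted p = 0.163), with a 95% interval from -0.10 to 0.018. Without the rRNA-rich pair the matΔ slope was -0.14 (edgeR, adjusted p = 0.00415).

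Dnmt3a (chr12:3806007-3914443) moved the other way in wt embryos. It stood at 165, 193, 189 and 199 CPM at 6 somites and at 228, 250 and 210 CPM at 11 somites, so the groups at the ends of the series did not overlap. The intermediate stages were not evenly spaced. The wt embryos with 7 or 8 somites lay between 167 and 181 CPM, and those with 9 to 11 somites lay above every earlier embryo, except an embryo of 10 somites at 168 CPM. The wt slope was 0.061 ± 0.017 log2 units per somite (edgeR, adjusted p = 0.0294). This call did not survive the removal of some single embryos, since without wt 6 somites replicate 1, 7 somites replicate 4, 11 somites replicate 1 or 11 somites replicate 2 the adjusted p was 0.0617, 0.0506, 0.0876 and 0.0868 (edgeR).

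In matΔ embryos Dnmt3a stood at 184, 179, 198 and 187 CPM at 6 somites and at 196 and 205 CPM at 11 somites, and the slope of 0.038 ± 0.015 did not pass (edgeR, adjusted p = 0.194). The difference between the genotypes' slopes was -0.024 ± 0.021, with a 95% interval from -0.067 to 0.018 (edgeR, adjusted p = 0.9998). The trend was therefore past the test in wt embryos without having been shown to differ between genotypes. An antisense gene, Dnmt3aos, shares 0.799% of the Dnmt3a exon bases and had 0 counts in every library.

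The opposite courses of Dnmt3b and Dnmt3a changed their proportion, which was described without a test because it was formed after both slopes were seen. The Dnmt3b to Dnmt3a RPKM ratio was 2.75 ± 0.203 (SD, n = 4) in wt and 2.73 ± 0.501 (SD, n = 4) in matΔ embryos at 6 somites. At 11 somites it was 1.55 ± 0.0343 (n = 3) and 1.68 ± 0.0825 (n = 2). Dnmt3b remained the higher per kilobase of merged exons in every embryo. The size of the ratio depends on the length used. With merged exons the wt means were 25.1 RPKM for Dnmt3b and 11.7 RPKM for Dnmt3a. With the longest transcript they were 29.7 and 20.2 RPKM.

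In matΔ embryos the ratio was 2.74 at 7, 2.40 at 8 and 1.77 at 9 somites, and the 9 embryos with 6 to 8 somites (2.01 to 3.13) did not overlap the 7 with 9 to 11 somites (1.52 to 1.93). Dnmt3b alone was already apart between these matΔ groups, so the ratio adds no separate observation. The share of other gene ratios that were apart was not computed. In wt embryos the ratio was 2.54, 2.27 and 1.82 at those stages, and the corresponding groups overlapped. The lowest ratios at 6 and 7 somites, 2.01 in matΔ and 1.95 in wt, were those of the 2 shallowest libraries, in which Dnmt3b had 111 and 326 counts. Leaving out both left 2.50 as the lowest ratio in wt embryos with 6 or 7 somites.

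**Figure D2:**
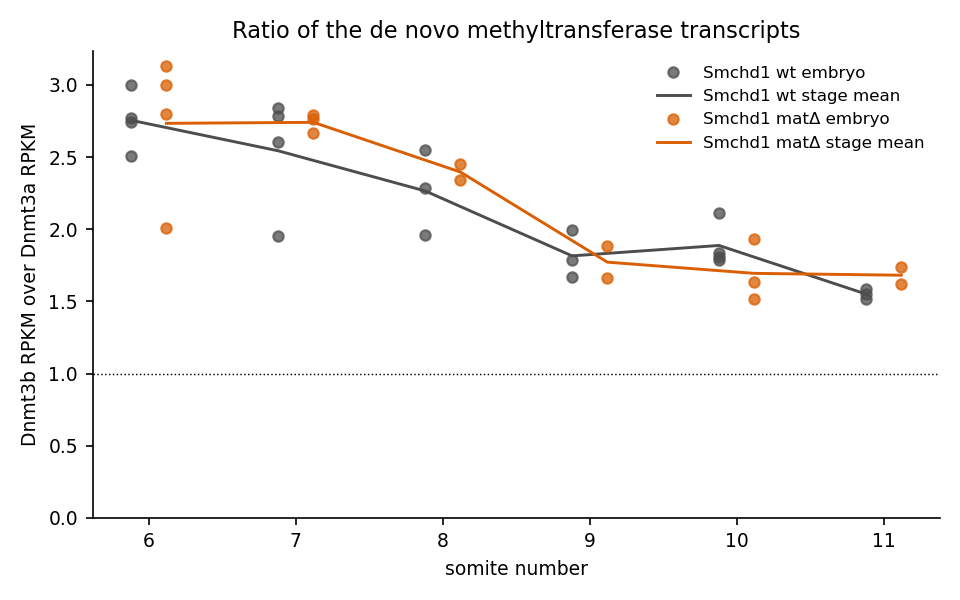
Ratio of Dnmt3b to Dnmt3a RPKM against somite number, with 1 point per embryo and lines through the stage means (grey wt, orange matΔ), and a dotted line at equal RPKM. The wt mean declines from 2.75 at 6 to 1.55 at 11 somites and the matΔ mean from 2.73 to 1.68, with all embryos above the dotted line.

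Other genes moved over the same stages. Of 8 germ cell and pluripotency markers, 7 were tested and 1 fell in both genotypes, Pou5f1, which encodes the OCT4 factor of the epiblast, with a slope of -0.53 ± 0.070 in wt (edgeR, adjusted p = 5.94e-05) and -0.59 ± 0.066 in matΔ embryos (edgeR, adjusted p = 4.63e-05). The summed level of that list was 110 to 146 CPM at 6 to 7 and 85.9 to 117 CPM at 10 to 11 somites in wt, and 92.7 to 182 and 79.0 to 115 CPM in matΔ embryos. Of 8 tailbud markers 1 fell, Nkx1-2, a marker of axial progenitors, with slopes of -0.11 and -0.15 (edgeR, adjusted p = 0.0294 and 0.0311). The endoderm list was uneven between dissections, at 382 to 2403 CPM at 6 to 7 and 14.6 to 2431 CPM at 10 to 11 somites in wt, and at 463 to 1500 and 22.2 to 2547 CPM in matΔ embryos.

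In wt embryos 3 of 6 endoderm markers fell (Apob, Ttr and Sox17). In matΔ embryos 0 of 6 passed in edgeR, with 0 also at an unadjusted p under 0.05, although 6 of 6 slopes were negative in both genotypes, with medians of -0.59 in wt and -0.16 in matΔ embryos. No gene passed the test of the difference between the genotypes' slopes in edgeR, where 3.67% of genes had an unadjusted p under 0.05, so an endoderm trend in wt embryos alone was not shown. Of 5 endothelial markers, Tie1 and Cdh5 rose in both genotypes. That list summed to 182 to 312 CPM at 6 to 7 and 168 to 302 CPM at 10 to 11 somites in wt, and to 174 to 274 and 202 to 286 CPM in matΔ embryos. Of 6 primitive erythroid markers, Hbb-y, an embryonic globin, rose in both, while the list summed to 12.9 to 1428 and 111 to 3861 CPM in wt and to 9.98 to 3097 and 435 to 4153 CPM in matΔ embryos. The part of these lists in the trends of Dnmt3b, Dnmt3a and Zfp57 was not tested. Of 4 neural markers tested, Sox1 rose in wt embryos, where 4 of 4 slopes were above 0 and 3 had an unadjusted p under 0.05 in edgeR. In matΔ embryos 3 of 4 neural slopes were above 0, with a median of 0.19, and 3 had an unadjusted p under 0.05. The 1 marker past the test, Nkx6-1, fell and had a mean of 1.01 CPM over all embryos, from 0 to 8.38 CPM. Nkx6-1 did not pass the filter over all embryos. It did in the slope fit, where the filter went by somite number and a few high libraries of one stage sufficed. Its fall is therefore not independent of the filter. Of 2 somite markers tested none passed in edgeR, with 1 in wt and 0 in matΔ embryos at an unadjusted p under 0.05. None of 12 S phase markers passed in edgeR, with 1 in wt and 2 in matΔ embryos at an unadjusted p under 0.05.

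Dnmt3l (chr10:78041947-78063622) was near the limit of detection. It drew 216 counts from all 37 libraries, with 0 counts in 10 of them and at most 3 in 22. In a library at 0, an upper limit of 3 counts corresponds to 0.179 to 0.988 CPM, for counting error only. At 6 somites the wt embryos had 31, 0, 0 and 4 counts, or 2.41, 0, 0 and 0.481 CPM, and the matΔ embryos 28, 36, 2 and 5 counts, or 4.35, 2.63, 2.20 and 0.235 CPM. From 8 somites on no embryo exceeded 0.614 CPM.

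The 2 highest matΔ values for Dnmt3l were those of the rRNA-rich pair. The third was 2 counts in the shallowest library. The filter on low counts passed Dnmt3l in 2 of the main fits. For the slope this filter grouped embryos by somite number, so a few high libraries of one stage sufficed. Dnmt3l thus entered both fits through the 6-somite embryos in which it was high. The sign of either value is therefore not independent of the filter, and no trend is read from it. The matΔ slope was -0.54 ± 0.22 (edgeR, adjusted p = 0.198) and the genotype difference at 6 somites was 1.58 ± 1.11 on the log2 scale (edgeR, adjusted p = 0.884). Both moved with single embryos. The slope was -0.84 without matΔ 11 somites replicate 2 and -0.40 without matΔ 6 somites replicate 1, and the difference at 6 somites was 3.84 without wt replicate 1 and 0.98 without matΔ replicate 1. Without the rRNA-rich pair the gene no longer passed the filter for the slope. Dnmt3l overlaps Aire on the other strand over 2.24% of its exon bases, and Aire drew 13 counts in all. Where libraries were made without strand, reads of the 2 cannot be told apart there.

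The 3 TET genes stood in similar proportions in both genotypes. Tet3 (chr6:83362373-83459084, minus strand) made up 58.4% ± 3.91 (SD, n = 21) of the summed TET RPKM in wt and 58.9% ± 3.89 (SD, n = 16) in matΔ embryos. Tet1 (chr10:62804570-62908996, minus strand) contributed 36.3% ± 3.97 and 36.7% ± 4.08. Tet2 (chr3:133463679-133545139, minus strand) contributed 5.29% ± 1.11 and 4.46% ± 1.46. These shares differed between genotypes by less than the spread between embryos. The size of the shares depends on the length used. With merged exons the wt means were 5.16 RPKM for Tet3, 3.23 RPKM for Tet1 and 0.465 RPKM for Tet2. With the longest transcript they were 7.91, 3.47 and 0.855 RPKM.

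No TET gene had a trend past the test in either genotype. In wt embryos the slopes were 0.020 ± 0.026 for Tet3, -0.039 ± 0.032 for Tet1 and -0.0087 ± 0.041 for Tet2. In matΔ embryos they were 0.034 ± 0.024, -0.020 ± 0.046 and 0.11 ± 0.070. At 6 somites Tet2 stood at 5.13, 5.11, 6.63 and 11.3 CPM in wt and at 2.64, 6.78, 1.10 and 6.97 CPM in matΔ embryos. The lowest of these was 1 count in the shallowest library, and the next, at 17 counts, was in 1 of the rRNA-rich pair.

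Zfp57 (chr17:37001163-37010635) rose per somite in matΔ embryos. There it stood at 18.3, 22.3, 12.1 and 17.8 CPM at 6 somites, at 22.2, 21.6 and 22.2 CPM at 7 and at 22.4 and 21.7 CPM at 8 somites. It then stood at 25.2 and 34.0 CPM at 9, at 31.0, 28.6 and 33.9 CPM at 10 and at 28.8 and 27.7 CPM at 11 somites. The 9 matΔ embryos with 6 to 8 somites (12.1 to 22.4 CPM) thus did not overlap the 7 with 9 to 11 somites (25.2 to 34.0 CPM). The lowest value, 12.1 CPM, was 11 counts in the shallowest library. The slope was 0.16 ± 0.032 log2 units per somite (edgeR, adjusted p = 0.00959). It was 0.16 without the rRNA-rich pair (edgeR, adjusted p = 0.0218) and 0.15 without the shallowest library (edgeR, adjusted p = 0.00939). In the 11 female matΔ embryos alone it was 0.17 and did not pass (edgeR, adjusted p = 0.0717).

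In wt embryos Zfp57 stood at 27.0, 22.9, 22.0 and 22.0 CPM at 6 somites and at 33.6, 25.1 and 27.8 CPM at 11 somites. Across all stages wt values ran from 20.9 to 33.6 CPM, without a gap between early and late embryos. The wt slope was 0.052 ± 0.022 (edgeR, adjusted p = 0.156). The difference between the genotypes' slopes was 0.094 ± 0.035 with a 95% interval from 0.023 to 0.17, and it did not pass over all genes (edgeR, adjusted p = 0.9998, unadjusted p = 0.011), where 3.67% of genes had an unadjusted p under 0.05. The rise of Zfp57 in matΔ embryos was therefore not shown to differ from that in wt embryos.

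Between matΔ embryos with 6 to 8 and those with 9 to 11 somites, the ranges of Dnmt3b and Zfp57 were apart, that is 2 of 9 members with a mean of at least 1 CPM, against 0.758% of such genes. The same 2 members were apart between 6 to 7 and 10 to 11 somites, against 2.93% of genes. In wt embryos 0 of 9 members had ranges that were apart in either split, against 0.204% and 0.937% of genes.

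Trim28 ranged from 661 over 909 to 1132 CPM in wt and from 809 over 985 to 1179 CPM in matΔ embryos. Its slope was -0.010 ± 0.022 in wt and -0.046 ± 0.017 in matΔ embryos (edgeR, adjusted p = 0.843 and 0.165). With DESeq2 the matΔ slope was -0.050 and passed (DESeq2, adjusted p = 0.0392).

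**Figure D3:**
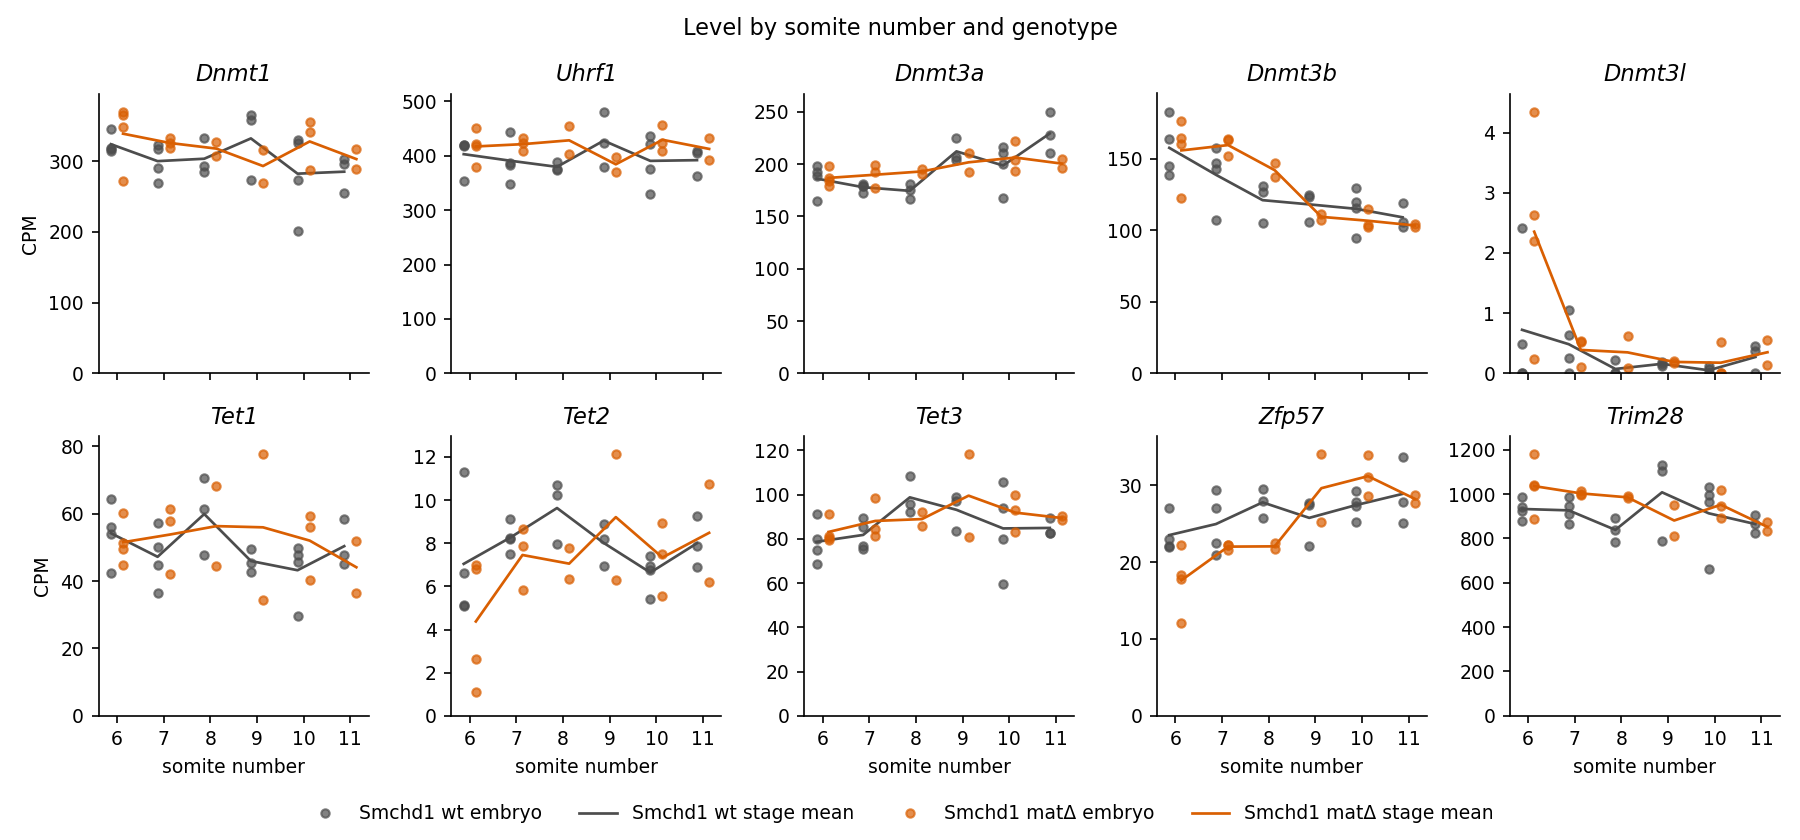
CPM of each gene against somite number, in 10 panels with axes from 0, with 1 point per embryo and lines through the stage means (grey wt, orange matΔ). Dnmt3b declines in both genotypes, Dnmt3a stands higher at 11 than at 6 somites in wt, and the matΔ points of Zfp57 run from 12.1 to 22.4 CPM up to 8 somites and from 25.2 to 34.0 CPM after.

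**Figure D4:**
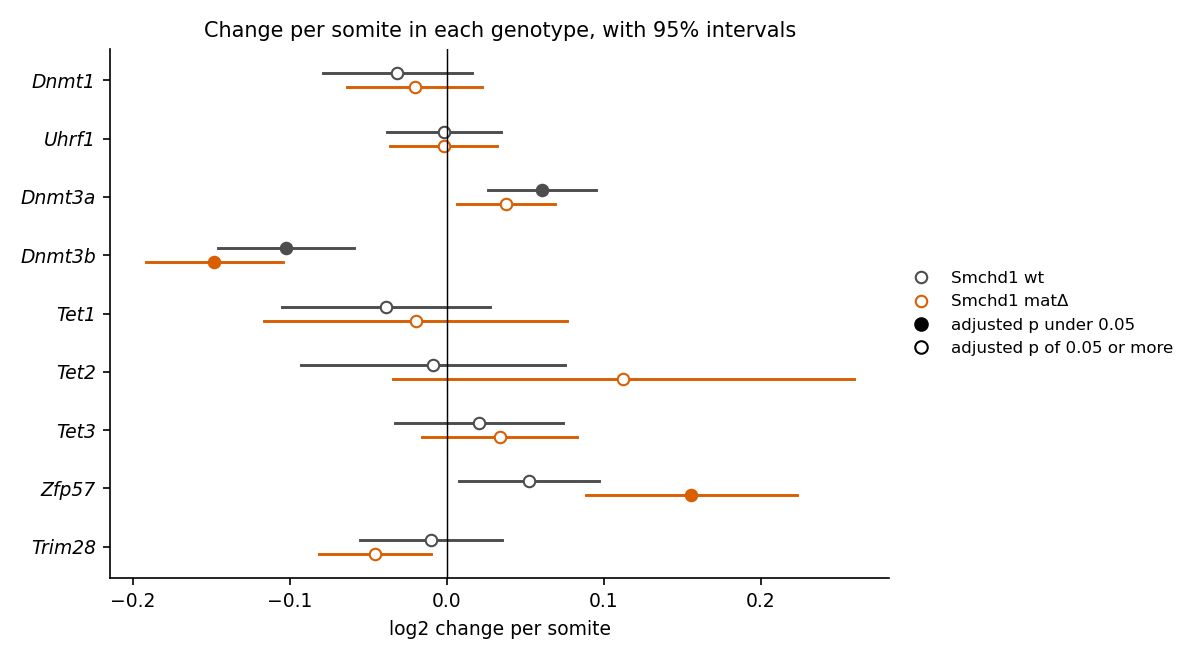
Change per somite, in log2 units, with 95% intervals for the 9 genes tested in both genotypes (grey wt, orange matΔ), with filled points past an adjusted p of 0.05. Dnmt3b is filled on the falling side in both genotypes, Dnmt3a on the rising side in wt and Zfp57 on the rising side in matΔ embryos.

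Genotypes were then compared at matched stage. None of the 9 members tested differed between matΔ and wt embryos over all stages (edgeR), and none had an unadjusted p under 0.05. Across all 14733 genes tested 0.0136% passed and 5.66% had an unadjusted p under 0.05, and DESeq2 called 0 members as well. Fold changes lay between -0.098 for Tet2 and 0.075 for Dnmt1 on the log2 scale, with 7 of 9 above 0. The members' median was 0.061, and that of all genes 0.0026. In the same fit 8 of 8 tailbud markers were above 0 with a median of 0.096, as were 6 of 6 endoderm markers (0.17), 3 of 3 neural markers tested (0.076), 4 of 6 primitive erythroid markers (0.24), 5 of 7 germ cell and pluripotency markers tested (0.027) and 8 of 12 S phase markers (0.022). Endothelial markers were above 0 in 0 of 5 (median -0.060), and the 1 somite marker tested, Meox1, was at 0.75. None of these markers passed in edgeR, and 4 had an unadjusted p under 0.05, of which 1 was a tailbud marker (Fgf8), 1 a somite marker (Meox1) and 2 were S phase markers (Mcm2 and Cdt1). Their part in the members' fold changes was not tested. The interval was tightest for Dnmt3a, at 0.0085 with 95% bounds of -0.066 and 0.084. That of Dnmt3b ran from -0.089 to 0.13 and that of Dnmt1 from -0.039 to 0.19. For Zfp57 the fold change was -0.078 ± 0.068, with an unadjusted p of 0.947 because edgeR raised it to the value of a Poisson test, and 0.259 without that bound.

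**Figure D5:**
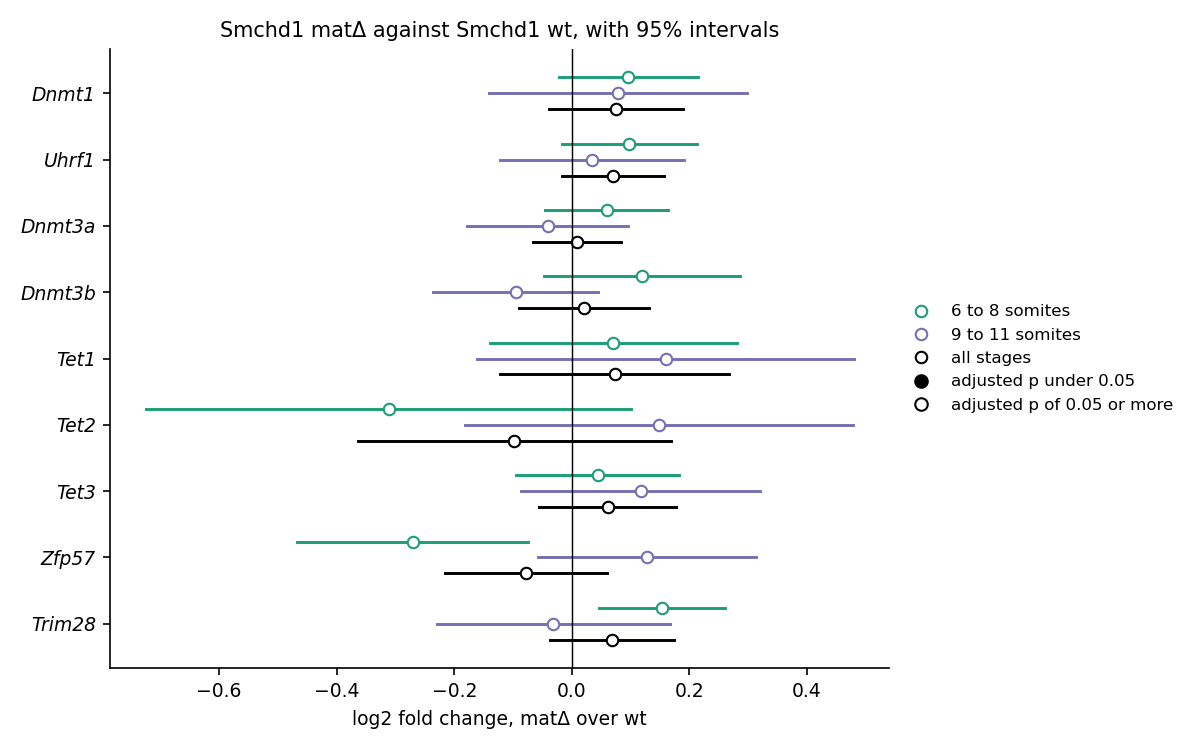
Log2 fold change of matΔ over wt embryos with 95% intervals for 9 genes, over 6 to 8 somites (green), 9 to 11 somites (purple) and all stages (black). All points are open because no adjusted p was under 0.05, and the intervals of Zfp57 and Trim28 at 6 to 8 somites lie on opposite sides of 0.

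Within 6 to 8 somites 0 of 9 members passed, against 0.0069% of genes, and 0 passed with DESeq2. An unadjusted p under 0.05 was found for 2 of 9, against 8.13% of genes. Zfp57 stood at 20.9 to 29.6 CPM with a median of 25.7 CPM in 11 wt embryos and at 12.1 to 22.4 CPM with a median of 21.7 CPM in 9 matΔ embryos, so the ranges overlapped between 20.9 and 22.4 CPM. Its fold change was -0.27 ± 0.095 on the log2 scale (edgeR, adjusted p = 0.476, unadjusted p = 0.00908). All 9 matΔ embryos lay below the wt mean of their stage. Of the 9 members with a mean of at least 1 CPM, Zfp57 alone had every early matΔ embryo on one side of these means, as did 2.66% of such genes.

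Without the rRNA-rich pair the Zfp57 fold change at 6 to 8 somites was -0.30, and without the 2 shallowest libraries it was -0.22, with adjusted p of 0.531 and 0.377 (edgeR). Marker lists in the same embryos spread widely in both genotypes. The endoderm list summed to 382 to 3335 CPM in wt and 463 to 1500 CPM in matΔ embryos, the primitive erythroid list to 12.9 to 1813 and 9.98 to 3097 CPM, and the germ cell and pluripotency list to 104 to 146 and 85.0 to 182 CPM. Their part in the Zfp57 values was not tested.

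Trim28, the partner of ZFP57, was the other gene with a low unadjusted p at 6 to 8 somites, with the opposite sign. It stood at 784 to 987 CPM with a median of 909 CPM in wt and at 887 to 1179 CPM with a median of 1002 CPM in matΔ embryos. The fold change was 0.15 ± 0.052 (edgeR, adjusted p = 0.476, unadjusted p = 0.00692). Without the rRNA-rich pair the Trim28 fold change was 0.12 (edgeR, adjusted p = 0.607, unadjusted p = 0.0343). Without the 2 shallowest libraries it was 0.17 (edgeR, adjusted p = 0.228).

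Within 9 to 11 somites 0 of 9 members passed, against 0.00671% of genes, none had an unadjusted p under 0.05, against 1.75% of genes, and DESeq2 called 0. Zfp57 stood at 22.1 to 33.6 CPM in 10 wt and at 25.2 to 34.0 CPM in 7 matΔ embryos, with a fold change of 0.13 ± 0.088. Dnmt3b stood at 94.5 to 130 CPM in wt and at 102 to 115 CPM in matΔ embryos. All 7 matΔ embryos lay below the wt mean of their stage for Dnmt3b, a one-sided placement seen in 1 of 9 members and 1.5% of genes, and the fold change was -0.095 ± 0.067 (edgeR, adjusted p = 0.9997).

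The change of the genotype difference between the windows was tested directly, and 0 of 9 members passed, as did 0 of 14733 genes in edgeR and in DESeq2. It was 0.39 ± 0.12 log2 units for Zfp57, with a 95% interval from 0.15 to 0.64 and in edgeR an adjusted p of 0.9998 and an unadjusted p of 0.00273. It was -0.22 ± 0.11 for Dnmt3b, with an unadjusted p of 0.0475 in edgeR. These were the 2 of 9 members with an unadjusted p under 0.05, against 3.36% of genes. Leaving out single embryos moved the Zfp57 value between 0.34 and 0.46.

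At single stages 0 members passed in any of the 6 comparisons with edgeR or DESeq2, and 0 had an unadjusted p under 0.05 in edgeR. No gene passed in edgeR at any of these stages, from 14191 to 15332 tested, although 0.56% to 8.66% had an unadjusted p under 0.05. Smchd1 itself did not pass either, with log2 fold changes from -0.56 at 6 somites to -0.96 at 9 somites. The single-stage comparisons could therefore miss a difference of that size in a member. Zfp57 was at -0.35 ± 0.19 at 6, -0.16 ± 0.14 at 7 and -0.33 ± 0.17 at 8 somites, and at 0.19 ± 0.20, 0.19 ± 0.11 and -0.042 ± 0.16 at 9, 10 and 11 somites on the log2 scale. Sex was compared in the same fit as genotype over all stages. None of 9 members passed, against 0.217% of genes, and none had an unadjusted p under 0.05, the lowest being 0.0716 for Dnmt3a in edgeR.

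The members' levels across the 37 embryos were compared by Pearson's r of log2 CPM, as a description. These values share library depth and stage. Dnmt1, Uhrf1 and Trim28 varied together, with r of 0.71 for Dnmt1 with Uhrf1, 0.73 for Dnmt1 with Trim28 and 0.69 for Uhrf1 with Trim28. After stage, sex and genotype were taken out these were 0.71, 0.70 and 0.69. Other pairs came near these after that step, with 0.67 for Dnmt3b with Trim28, 0.64 for Tet1 with Tet3 and 0.63 for Dnmt1 with Tet3. The r of gene pairs outside the members was not taken as a background, so this likeness is not particular to the 3 genes. Dnmt3b and Zfp57 ran against each other with r of -0.61, and after the same step r was -0.16.

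Tet2 and Zfp57 had r of 0.65, which was 0.19 without the 4 libraries that stood apart by ribosomal RNA counts or depth. Among 11212 genes, those nearest to Trim28 were Tubb5, a tubulin (r = 0.90), Zkscan17 (0.90) and Smarca4, the ATPase of the BAF complex (0.89). Nearest to Dnmt3b were Olfml2a (0.89), Epha1 (0.88) and Cyfip2 (0.86). With stage, sex and genotype taken out, these were 0.66, 0.67 and 0.65, whereas those of Trim28 were 0.91, 0.90 and 0.89. Nearest to Uhrf1 were Alpl (0.81), Clstn1 (0.81) and Mcm2 (0.80), a subunit of the replicative helicase. Nearest to Dnmt3a were Bcl2l11 (0.86), Slc39a6 (0.84) and Fads2 (0.83), and nearest to Zfp57 were Enpp1 (0.83), Ets1 (0.81) and Fdft1 (0.80). The same step left 0.70, 0.72 and 0.73 for Dnmt3a and 0.71, 0.60 and 0.66 for Zfp57. Nearest to Dnmt1 was Snrnp200 (0.88), to Tet1 Wnk1 (0.84) and to Tet3 D630045J12Rik (0.80). Nearest to Tet2 was Mcam (0.87), with 0.54 without those 4 libraries.

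Among 67 further genes of the pathway, 55 were tested for a wt slope and 2 passed, against 6.61% of all genes. Idh1, which makes the 2-oxoglutarate that TET enzymes use, rose by 0.18 ± 0.024 per somite in wt (edgeR, adjusted p = 7.18e-05) and by 0.16 ± 0.030 in matΔ embryos (edgeR, adjusted p = 0.00452). Tex19.1, a germline gene whose promoter is silenced by methylation, fell by 0.38 per somite in wt (edgeR, adjusted p = 0.0355) and had a slope of -0.45 ± 0.17 in matΔ embryos (edgeR, adjusted p = 0.168). In matΔ embryos 1 of 54 genes passed, against 2.95% of all genes. Both counts are too small to tell these shares from those of all genes, and the difference was not tested.

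These 2 genes were 1 of 11 for demethylation and base excision and 1 of 6 tested germline genes silenced by promoter methylation. By group, 0 of 7 maintenance partners, 0 of 10 methyl-CpG readers, 0 of 7 genes of S-adenosylmethionine supply and 0 of 13 tested genes of imprint protection passed a slope test in edgeR. Of 6 maternal-effect imprint genes of the oocyte 1, Tle6, was above the filter and it did not pass. Hells, the remodeller that opens chromatin for DNMT1, had slopes of 0.043 ± 0.024 and 0.049 ± 0.022 in wt and matΔ embryos. None of 53 tested pathway genes differed between genotypes in edgeR or DESeq2, and 4 had an unadjusted p under 0.05 (Arid4b, Morc3, Ahcy and Shmt2), against 5.66% of all genes.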

How the data were processed

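Per the study's methods, the authors prepared poly(A) libraries from each tailbud with an unstranded or a stranded TruSeq kit (which library had which is not given in the sources used here), sequenced single-end reads, trimmed them with Trim Galore 0.4.4, mapped them with HISAT2 2.0.5 to GRCm38.p6 and counted genes in SeqMonk. The values used are the deposited raw counts per gene, made by the authors and not normalised. The deposited log2 RPKM values of Hox genes and the authors' list of called genes with p-values, false discovery rates and fold changes were not used.

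Groups came from the labels. After 49 rows that shared an identifier were dropped and 26 gene names damaged as dates were restored, 35542 genes were fitted in edgeR 4.0.16 (R 4.3.3) with TMM factors, filterByExpr (minimum count 10) and the quasi-likelihood F test, two-sided, with Benjamini-Hochberg adjustment over all genes tested and a threshold of 0.05. The genotype models held somite stage (categorical) and sex, single stages without covariates, and slopes on somite number with sex. The filter grouped embryos by somite number for the slopes within a genotype and by genotype elsewhere. Where edgeR's p was below that of a Poisson test it was raised to it, as the tool does by default. CPM and RPKM were computed from the TMM-scaled counts, with merged exons of GENCODE M21 as length, and r from log2 CPM with a prior count of 2. Genes named for likeness were the 3 with the highest r at a mean of at least 5 CPM. In the pathway lists genes past the threshold or with the 2 smallest p of a list and fit could be named. The fits were tested on simulated data. Alternatives were RLE factors, no filter, DESeq2 1.42.0, a replicate block, other covariates, and leaving out libraries or single embryos. The members and lists were chosen with earlier results of these data known. Embryos are separate animals, and low depth limits the precision of genes with few counts in the shallow libraries. Litters are not given, so p-values treat embryos as independent. Start regions came from the RefSeq table of GRCm38.p6.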

Additional observations from a re-analysis of the deposited data

Results flagged for a closer look

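In 40 groups of 4 embryos (10 genes at the 4 combinations of genotype and stage that held 4), 3 values lay far from the other embryos of their group by Dixon's test, where chance gives about 1 in 20 groups. Dnmt1 was at 345 CPM in wt 6 somites replicate 1, the highest of its group. Uhrf1 was at 354 CPM in the same embryo, the lowest of its group, so the partners deviated in opposite directions and its Dnmt1 to Uhrf1 RPKM ratio of 0.563 was the highest of all 37 embryos. Tet3 was at 91.1 CPM in matΔ 6 somites replicate 4, the highest of its group. That embryo also had 3097 CPM of summed primitive erythroid markers, against 39.7 to 134 CPM in the rest of its group, and the part of these markers in the Tet3 value was not tested.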

How the results depend on the processing

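Over all fits, the members' values were recomputed 3286 times under the alternatives, of which 3129 kept both sign and side of the threshold, 5 lost a call and 1 gained one, while 151 changed the sign of a value that had not passed and 0 reversed a call. Most of these values had not passed in the main fits and so had no call to lose. Of the calls, the fall of Dnmt3b passed in 29 of 29 alternatives in wt and 25 of 25 in matΔ embryos. The rise of Dnmt3a in wt passed in 25 of 29, and that of Zfp57 in matΔ embryos in 24 of 25. The number of members with a slope past the test was 1 to 2 in wt embryos when single embryos were left out. In female embryos alone it was 1 in matΔ embryos. Among the other pathway genes, 1 to 3 passed in wt embryos when single embryos were left out, 1 with a replicate block, 1 with no sex covariate and 5 in female embryos alone. The cause was not tested. For Zfp57 at 6 to 8 somites the log2 fold change ran from -0.38 to -0.22 and edgeR's or DESeq2's adjusted p from 0.216 to 0.898.

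The main fits did not pair embryos by replicate number. Of 16 same-numbered pairs of deviations 4 had a correlation above 0.1, and the median was -0.00024. Deviations were taken from the mean of each small group, so they mirror each other in groups of 2 embryos. These values therefore cannot decide whether same-numbered embryos were paired. With a replicate block the slopes of 2 members passed in each genotype, and 0 members passed in any comparison of genotypes. Counts over all genes moved by more than 1.5 times in several fits. The wt slope gave 1036 genes, against 1556 with DESeq2, 1910 in females alone and 687 to 1971 without single embryos. The matΔ slope gave 478 genes, against 1121 with DESeq2, 301 without the rRNA-rich pair, 188 in females alone and 239 to 615 without single embryos. At 6 to 8 somites the genotype comparison gave 1 gene, against 39 without the filter and 37 with DESeq2. Without the filter the slope difference gave 39 genes and single stages up to 186, against 0. The alternative without the Poisson bound was chosen after seeing the data. Depth limits Dnmt3l, with 216 counts in all, and Tet2 in the shallowest library.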
